A study of Mus musculus with 4 samples.

Results

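Cxcl9, Cxcl10 and Cxcr3 encode a pair of chemokines and the receptor that reads them. They were chosen by name, and all 3 were found among the 22631 genes counted in CD45+ cells of mouse MC38 tumours. The cells came from 1 untreated tumour and from 2 tumours treated with an agonist antibody against CD40. MC38 is a transplanted mouse colon carcinoma line. Every mouse carried the IL-12p40-IRES-EYFP transgene, a reporter of the shared interleukin-12 subunit. The tumours had grown in the flank for 7 days when the mice received 5 mg/kg of the antibody into the peritoneum or nothing, and they were taken 2 days later. CD45+ cells were sorted with 7AAD as a stain for dead cells and put through inDrops, in which droplets hold single cells and RNA molecules are counted as unique molecular identifiers (UMIs). No age, sex or strain background is given for the mice in the sources used here. No cells of a vehicle-treated or control-antibody-treated mouse were analysed here.

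Cxcl9 and Cxcl10 are secreted chemokines that attract cells carrying CXCR3, a receptor of activated T cells and NK cells. Interferon gamma, made mainly by those lymphocytes, induces both ligands. Cxcl10 also responds to type I interferon and to NF-kB signalling, and in tumours both ligands are known as products of macrophages, monocytes and dendritic cells. CD40 is a receptor of antigen-presenting cells whose ligation leads to interleukin-12 and, through it, to interferon gamma.

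The genes of both ligands lie side by side on the minus strand of chromosome 5 in the GRCm38 build (GENCODE M21 annotation). Cxcl9 spans chr5:92321347-92328079 and Cxcl10 spans chr5:92346638-92348889, with 18558 bases between them. Cxcr3 lies at chrX:101731535-101734269, also on the minus strand. An exon of Cxcl10 overlaps Art3, a gene of the other strand, and whether strand was used in counting is not given in the sources used here. Art3 itself had 9 UMIs in all cells. Cxcl11, the other known CXCR3 ligand gene, is annotated as a polymorphic pseudogene in this build and was not analysed here. The 250 bases before the start of each ligand gene are printed below because the ligands are neighbours that differed in where their transcripts lay. They were taken from the RefSeq promoter table of GRCm38.p6, run 5′ to 3′ along the gene, and cover chr5:92328080-92328329 for Cxcl9 and chr5:92348890-92349139 for Cxcl10, both on the minus strand. Capitals mark the motif matches.
Cxcl9: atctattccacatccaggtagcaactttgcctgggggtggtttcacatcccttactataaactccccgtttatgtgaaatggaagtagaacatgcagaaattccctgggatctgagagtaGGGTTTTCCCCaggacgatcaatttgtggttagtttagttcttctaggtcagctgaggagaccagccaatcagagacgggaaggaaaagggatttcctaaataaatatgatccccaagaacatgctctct
Cxcl10: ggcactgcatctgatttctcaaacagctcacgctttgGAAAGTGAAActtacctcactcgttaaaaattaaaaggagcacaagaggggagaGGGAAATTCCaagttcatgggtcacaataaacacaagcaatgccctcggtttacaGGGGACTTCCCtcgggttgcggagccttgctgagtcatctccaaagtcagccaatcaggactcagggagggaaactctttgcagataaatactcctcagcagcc
Both strands were searched for 3 motifs in all 32851 such windows of the table. The core of the interferon-stimulated response element, spelled as GAAA, any 2 bases and GAAA, was found in 2.98% of windows. Of the 3 genes, Cxcl10 alone held it, as GAAAGTGAAA from 213 to 204 bases before the start. A loose NF-kB motif, spelled as GGG, any 5 bases and CC and present in 45.8% of windows, was found in all 3 genes. In Cxcl9 its overlapping matches spanned 130 to 120 bases before the start. In Cxcl10 it lay from 159 to 150 bases and, as overlapping matches, from 104 to 94 bases before the start. The gamma-activated motif TTCNNNGAA, present in 7.02% of windows, had no match in these 3 windows. A match describes letters and was not tested as a binding site.

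The files held 4440 cells with 3961141 UMIs in 12 libraries of 144726 to 618090 UMIs. The untreated tumour gave 1399 cells with a median of 433 UMIs, anti-CD40 tumour 1 gave 1226 cells with a median of 979, and anti-CD40 tumour 2 gave 1815 cells with a median of 865. Untreated cells were thus the shallowest, and levels are given as UMIs per 1000000 UMIs of the same cells (CPM). No barcode was found in more than 1 library. Libraries of the untreated tumour shared sequencing pools 1 and 2 with those of anti-CD40 tumour 1, whereas anti-CD40 tumour 2 was sequenced in pools 3 and 4. The cell types were the authors' annotation, in which monocytes, macrophages and dendritic cells form a single class, called myeloid cells here. The defining markers were present under each label. In neutrophils the summed level of 9 neutrophil markers was 43293 to 108963 CPM over the tumours. In T cells all 10 T cell markers had UMIs in every tumour, and in NK cells all 7 NK cell markers had UMIs in every tumour. The T cell markers summed to 4846 to 5982 CPM in T cells. In myeloid cells of the untreated tumour, tumour 1 and tumour 2 they summed to 139, 1.68 and 50.9, with all 10 present in the untreated tumour and tumour 2.

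Cxcl9 was almost wholly a myeloid transcript, Cxcl10 was shared between myeloid cells and neutrophils, and Cxcr3 was a sparse T cell transcript. Cxcl9 gave 562 UMIs in 255 cells, and 97.7% of them lay in myeloid cells. Cxcl10 gave 1036 UMIs in 389 cells, of which 62.3% lay in myeloid cells and 32.2% in neutrophils. Cxcr3 gave 45 UMIs in 38 cells, 36 in T cells, 5 in NK cells, 4 in myeloid cells and 0 in neutrophils. Since the authors named the cell types from the same counts, differences between cell types are described and not tested.

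**Figure D1:**
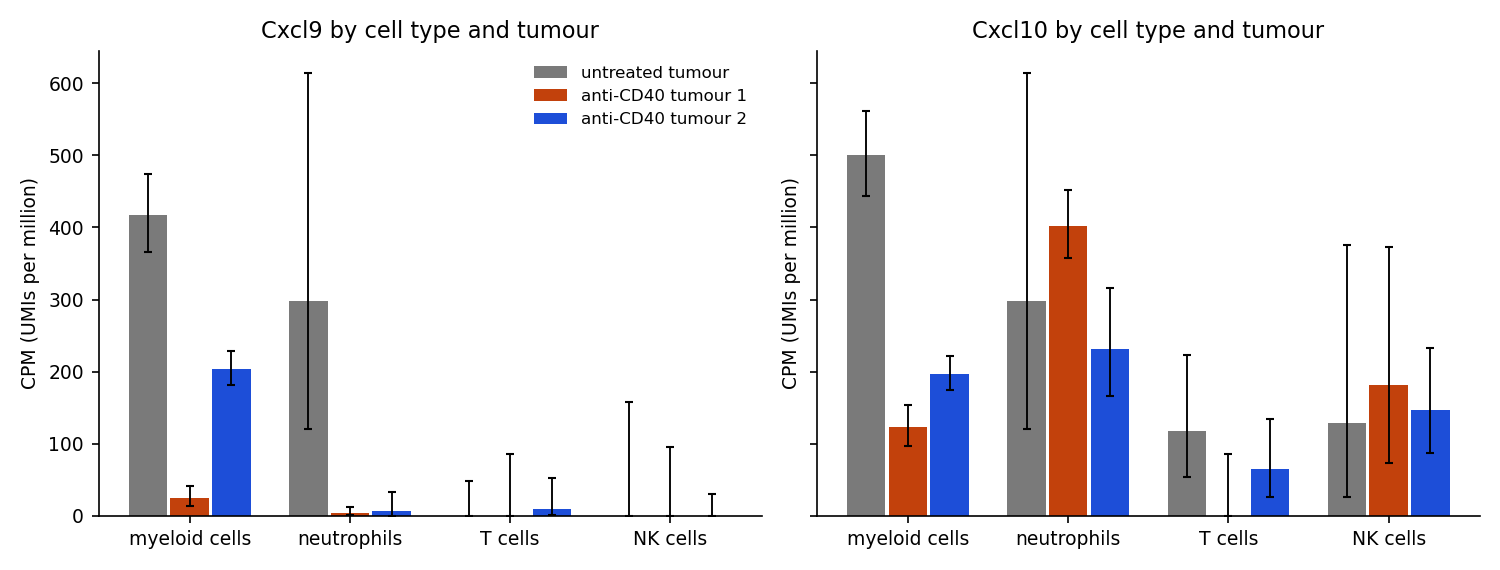
Cxcl9 (left) and Cxcl10 (right) in CPM by cell type, with a bar for each tumour and exact Poisson 95% intervals that cover counting error only. Myeloid cells of the untreated tumour stood at 418 for Cxcl9 and 500 for Cxcl10, above both treated tumours, and the untreated neutrophil bars of both ligands rest on 1 cell.

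In myeloid cells both ligands were lower in each treated tumour than in the untreated tumour, by amounts that differed between the treated tumours. Of the 7099 genes tested in myeloid cells, 37.1% were lower in both treated tumours. The Cxcl9 level was 418 CPM in the untreated tumour (238 UMIs in 1136 cells; 95% Poisson interval 366 to 474). It was 25.2 in tumour 1 (15 UMIs in 448 cells; 14.1 to 41.5) and 203 in tumour 2 (296 UMIs in 1330 cells; 181 to 228). Set against the untreated tumour, this was 16.6-fold lower in tumour 1 (interval for counting error 9.85 to 30.1) and 2.05-fold lower in tumour 2 (1.72 to 2.44). The Cxcl10 level was 500 CPM in the untreated tumour (285 UMIs; 444 to 562), 123 in tumour 1 (73 UMIs; 96.1 to 154) and 197 in tumour 2 (287 UMIs; 175 to 221). This was 4.08-fold lower in tumour 1 (3.15 to 5.35) and 2.53-fold lower in tumour 2 (2.14 to 3.00). The treated tumours thus lay closer together for Cxcl10 than for Cxcl9.

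Each tumour was sequenced as 4 libraries, and the ligand levels of myeloid cells varied between them. Across 4 libraries each, Cxcl9 ran from 344 to 475 CPM in the untreated tumour, from 7.69 to 42.9 in tumour 1 and from 181 to 310 in tumour 2. Cxcl10 ran from 356 to 644, from 30.4 to 277 and from 182 to 219. Libraries are technical parts of a tumour, so this spread does not measure differences between animals. For both ligands every untreated library lay above every treated one. How many of all genes had libraries apart in this way was not counted, so this is not read as a result. Within pool 1, where both conditions were sequenced together, Cxcl9 was 421 in the untreated tumour and 21.5 in tumour 1, and Cxcl10 was 506 and 68.1. Within pool 2, Cxcl9 was 413 and 28.4, and Cxcl10 was 492 and 171. Tumour 2 had no untreated library in its pools.

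**Figure D2:**
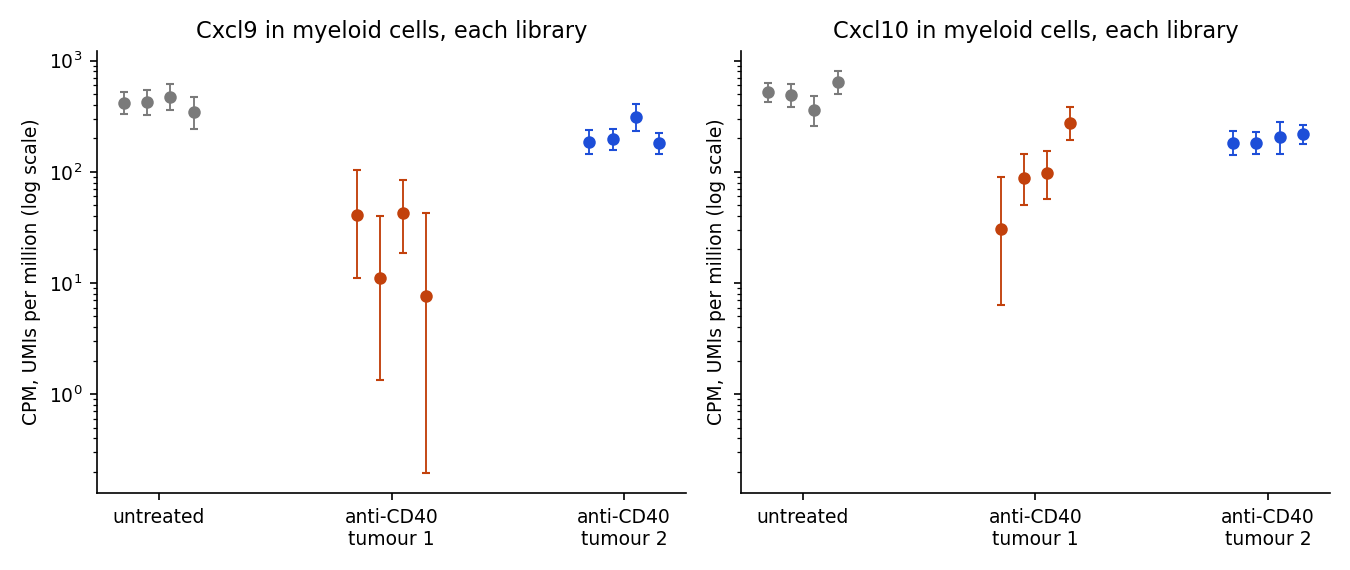
Cxcl9 (left) and Cxcl10 (right) in myeloid cells, in CPM on a log scale, with a point for each of the 4 libraries of a tumour and exact Poisson 95% intervals. The lowest untreated library stands at 344 for Cxcl9 and 356 for Cxcl10, and the highest treated library at 310 and 277. Libraries are technical parts of a tumour, and the share of all genes with such a gap was not counted.

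Summed per tumour and tested with edgeR's quasi-likelihood test, neither myeloid difference passed the adjusted threshold of 0.05. The log2 change of Cxcl10 was -1.58 ± 0.41 (SE, n = 1 untreated and 2 treated tumours; unadjusted p = 0.00172, adjusted p = 0.194). That of Cxcl9 was -1.72 ± 1.62 (adjusted p = 0.852), with a wider error and treated tumours farther apart. In this fit 29 of 7099 genes passed, or 0.409% (0.169% upwards and 0.239% downwards), and the median over all genes tested was 0.02. The Cxcl10 call depended on the setting: its adjusted p was 0.0145 with plain library sizes, 0.0269 without the filter on low counts and 0.0183 in cells thinned to 300 UMIs, and 0.981 with DESeq2. That of Cxcl9 was 0.00933 without the filter and 0.0339 in thinned cells, and 1.00 with DESeq2. The direction was down for both ligands under every alternative run in myeloid cells.

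The share of myeloid cells with a UMI of a ligand followed the levels less closely, and treated cells were the deeper ones. Cxcl9 was seen in 10.7% of untreated myeloid cells (Clopper-Pearson 95% interval 8.92 to 12.6), 2.68% in tumour 1 (1.39 to 4.63) and 8.80% in tumour 2 (7.33 to 10.5). In cells thinned to 300 UMIs, which left out 281, 29 and 67 cells, these shares were 9.94%, 1.43% and 4.51%. Cxcl10 was seen in 135 of 1136, 26 of 448 and 133 of 1330 myeloid cells, and in 10.2%, 2.86% and 4.35% after thinning. T cells, which give a measure of free RNA here, had a Cxcl9 UMI in 0 of 150, 0 of 48 and 1 of 135 cells and a Cxcl10 UMI in 4, 0 and 4 cells, at medians of 475.5, 778 and 651 UMIs. In T cells thinned to 300 UMIs, Cxcl10 was seen in 0 of 124, 0 of 47 and 2 of 127 cells. Every myeloid share in thinned cells lay above the T cell share of the same tumour. In tumour 1 the T cells were too few to set a margin over free RNA. Its 0 came from 16 thinned T cells in pool 1 and 31 in pool 2. Taken alone, these allow shares of up to 20.6% and 11.2%, above its myeloid shares.

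Most myeloid cells had a UMI of neither ligand: 908 of 1136 in the untreated tumour, 410 of 448 in tumour 1 and 1106 of 1330 in tumour 2. Cxcl9 alone was found in 93, 12 and 91 cells, Cxcl10 alone in 107, 26 and 107, and both in 28, 0 and 26. Among myeloid cells with a Cxcl9 UMI, 28 of 121 in the untreated tumour also had a Cxcl10 UMI, or 23.1% (15.96 to 31.7), against 10.5% (8.72 to 12.6) of cells without Cxcl9. In tumour 2 this was 26 of 117, or 22.2% (15.1 to 30.8), against 8.82% (7.28 to 10.6). In tumour 1 it was 0 of 12 cells. Cells with a ligand UMI were deeper in every tumour, except those with Cxcl9 in tumour 1, at a median of 960 against 1060 UMIs. In the untreated tumour and in tumour 2, thinning brought the shares to 16.5% against 9.48% and to 8.77% against 4.15%. The intervals overlapped in both tumours. Spp1, a macrophage gene often set against Cxcl9 in tumours, had a UMI in 18 of 121, 1 of 12 and 14 of 117 cells with Cxcl9, or 14.9%, 8.33% and 11.97%, and in 132 of 1015, 57 of 436 and 164 of 1213 cells without it, the last 2 being 13.1% and 13.5%, with overlapping intervals in each tumour.

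Myeloid cells with a ligand UMI had higher levels of both interferon lists in the untreated tumour and in tumour 2. In tumour 1, with 12 cells with Cxcl9 and 26 with Cxcl10, this was less general. There the type I list was not higher in cells with Cxcl9. The interferon gamma list was nearly alike with and without Cxcl10, from 251 UMIs in the cells with it. In myeloid cells with Cxcl9, the summed level of 33 interferon gamma induced genes was 9227 CPM in the untreated tumour, 7012 in tumour 1 and 7752 in tumour 2. In cells without Cxcl9 it was 5772, 4993 and 5475. The same list stood at 8293, 5185 and 7301 in cells with Cxcl10 and at 5840, 5032 and 5447 in cells without it. In cells with Cxcl10, the summed level of 35 type I interferon induced genes was 11579, 9316 and 8035, against 4997, 4557 and 4723 without it. That list stood at 7355, 4849 and 5541 in cells with Cxcl9 and at 5831, 4946 and 5123 in cells without it. Neither ligand is on these lists, and cells are not replicates, so these are descriptions.

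The myeloid class was not made up alike in the 3 tumours. The summed level of 10 macrophage markers was 20467 CPM in the untreated tumour, 4987 in tumour 1 and 15901 in tumour 2. That of 9 monocyte markers was 3941, 6731 and 2042, and that of 9 neutrophil markers was 437, 2375 and 1197. Each macrophage and monocyte marker had UMIs in all 3 tumours, and of the neutrophil markers only Mmp9 was at 0, in tumour 1. Tumour 1, with the lowest Cxcl9 level, thus had the lowest macrophage and the highest monocyte and neutrophil marker levels. The part of this in the ligand levels was not tested across tumours, and the clusters described next give the levels within kinds of myeloid cells.

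Clustered without the 3 genes, myeloid cells fell into 13 groups that were shared unequally between the tumours. Cluster 1, macrophage-like and led by Ms4a7, Pmepa1 and C1qa, held 631 cells, 422 of them untreated, 18 from tumour 1 and 191 from tumour 2. Its Cxcl9 level was 317 CPM in the untreated tumour (245 to 402) and 387 in tumour 2 (300 to 490), a ratio of 1.22 (0.859 to 1.74). Its Cxcl10 level was 430 (346 to 528) and 148 (96.6 to 217), a ratio of 0.344 (0.213 to 0.537). In these macrophage-like cells of tumour 2, Cxcl10 was lower while the Cxcl9 interval included the untreated level. Cluster 2, led by the MHC class II genes H2-Ab1 and H2-Eb1 and left unnamed, had 327 untreated cells and 125 from tumour 2. Its levels were 513 and 462 for Cxcl9, a ratio of 0.899 (0.621 to 1.29), and 396 and 489 for Cxcl10, a ratio of 1.23 (0.843 to 1.80).

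Clusters 3, 4 and 5 held mostly treated cells. They were led by Vegfa and Ifitm1, by Nr1h3 and Pdgfb, and by Mmp12 and Nos2, and they too were left unnamed. Their untreated cells, 31 to 39 a cluster, had Cxcl9 at 397 to 498 CPM. Their Cxcl9 levels were 40.6, 32.2 and 22.1 in tumour 1, from 4 UMIs or fewer each, and 171, 142 and 85.2 in tumour 2. Cxcl10 in these clusters was 511, 353 and 498 in untreated cells, 60.8, 177 and 375 in tumour 1, and 74.5, 295 and 170 in tumour 2. Over the clusters with at least 20 cells and UMIs in both groups, Cxcl9 was lower than untreated in 5 of 5 in tumour 1 and in 6 of 7 in tumour 2. The interval of the ratio lay below 1 in 4 of those in tumour 1 and in 3 of those in tumour 2. Cxcl10 was lower in 4 of 4 and in 5 of 6, with the interval below 1 in 2 and in 3.

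Both ligands were highest in a monocyte-like cluster of the untreated tumour. Cluster 8, led by Ifitm6, Wfdc17, Gbp2, Tgm2 and Igtp, had 104 of its 108 cells from the untreated tumour. It stood at 664 CPM for Cxcl9 (479 to 898) and 1455 for Cxcl10 (1173 to 1785), and it held 14.3% of the Cxcl10 UMIs of myeloid cells. Among untreated cells alone, in clusters with at least 20 of them, Cxcl9 was 601 in cluster 8 (421 to 832). It was 551 in cluster 13 (294 to 943) and 513 in cluster 2 (409 to 637), with overlapping intervals. Cxcl10 was 1486 in cluster 8 (1193 to 1829). The next untreated level, 511 in cluster 3 (234 to 970), had an interval below that. Gbp2, Tgm2 and Igtp are themselves known as interferon-inducible genes. Which cluster stood highest changed with the clustering: at a resolution of 0.5 it was a cluster led by G0s2 and S100a9 for Cxcl9, and at a resolution of 2 it was a cluster led by Ifit3, Ifit2 and Rsad2 for Cxcl10, at 1887. Without the genes of the interferon lists, Cxcl9 was highest in a cluster led by C1qa and Apoe, at 547. Leaving out cluster 8, the myeloid log2 change of Cxcl10 was -1.20 (adjusted p = 0.428, edgeR). A second monocyte-like cluster, number 7, led by Lcn2 and S100a8, drew 124 of its 132 cells from tumour 1. It had 0 Cxcl9 UMIs, where 3 counts would be a level of 11.2 CPM, and a Cxcl10 level of 135. Leaving it out gave a log2 change of -1.51 for Cxcl10 (adjusted p = 0.00129, edgeR) and of -1.50 for Cxcl9 (adjusted p = 0.753). These 2 fits were added after the clusters had been seen.

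Mature dendritic cell-like cells had few UMIs of either ligand. Cluster 6, led by Fscn1, Ccr7 and Ccl22, held 170 cells, from all 3 tumours, with 6 Cxcl9 UMIs and 4 Cxcl10 UMIs. Its levels were 44.7 CPM for Cxcl9 (16.4 to 97.2) and 29.8 for Cxcl10 (8.11 to 76.3). Each tumour gave 2 of its Cxcl9 UMIs, at 115 CPM in the untreated tumour, 40.1 in tumour 1 and 29.8 in tumour 2. In tumour 1 that was above the 25.2 of all myeloid cells, with an interval of 4.86 to 145. Nonclassical monocyte-like cells, cluster 12, led by Ace and Ear2, had 0 Cxcl9 UMIs and 6 Cxcl10 UMIs in 53 cells. Cluster 11 carried neutrophil markers at its head (G0s2, S100a9, Hdc) although it lay in the myeloid class. It held 28 Cxcl9 UMIs in 59 cells, 54 of them from tumour 2, and without it the myeloid log2 changes were -1.78 for Cxcl9 and -1.58 for Cxcl10. Cluster 10, led by Gzmb and Il2rb and left unnamed, held 81 cells, at 281 CPM for Cxcl9 and 337 for Cxcl10. At a resolution of 0.5, 46 myeloid cells formed a cluster with the T cell markers Cd3d, Trac and Trbc2 among its top 10 genes. Its Cxcl9 level was 349.

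**Figure D3:**
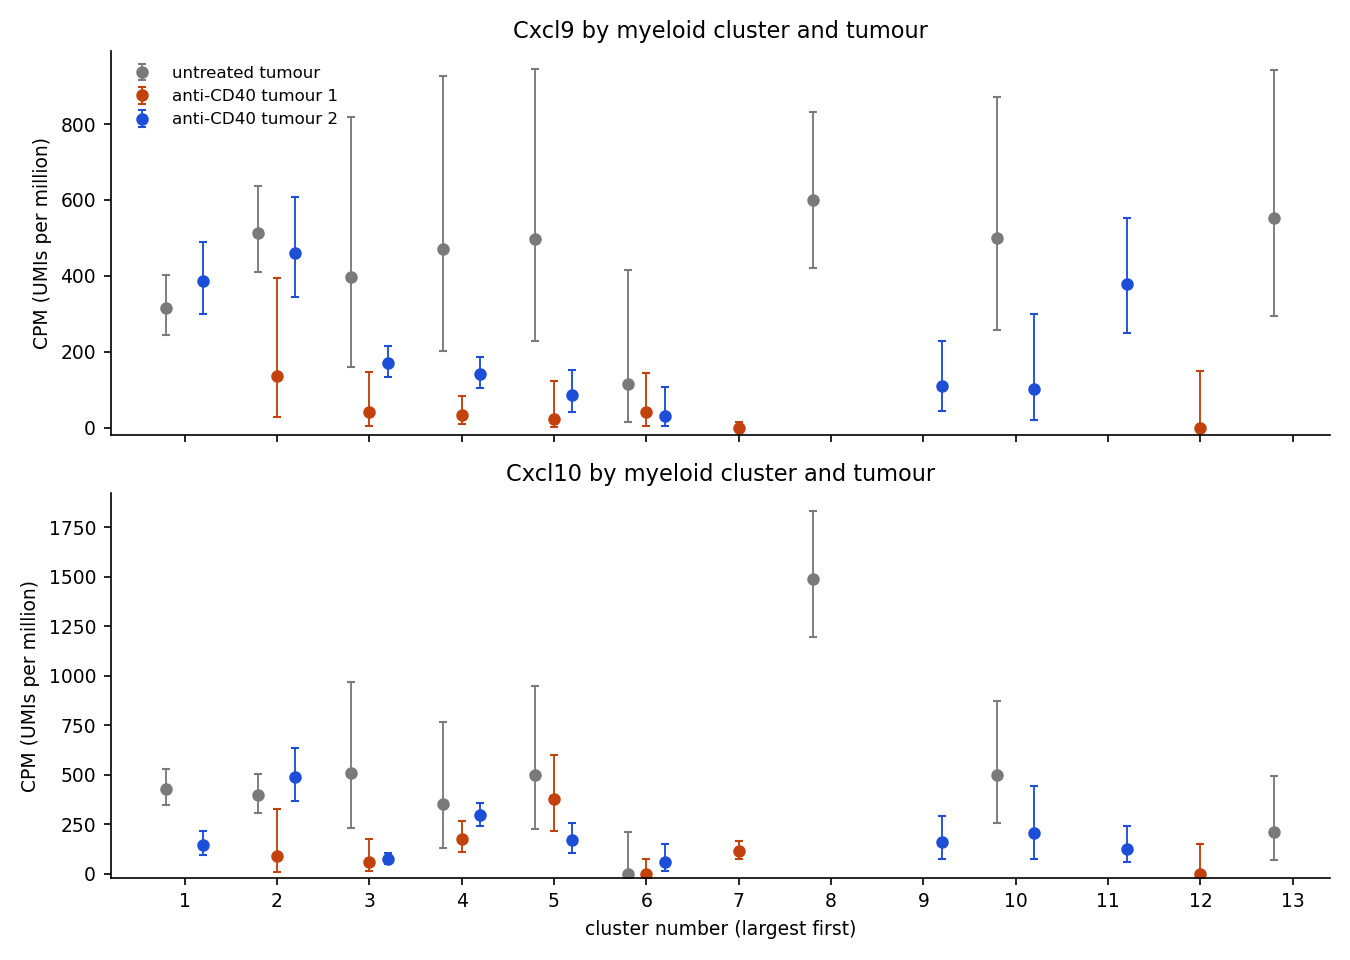
Cxcl9 (top) and Cxcl10 (bottom) in CPM for each myeloid cluster, numbered from the largest, with a point for each tumour that had at least 20 cells there and exact Poisson 95% intervals. Cluster 8 stands highest, with an untreated point alone, and for Cxcl9 its interval overlaps those of other clusters. In cluster 1 the untreated tumour and tumour 2 lie at 317 and 387 for Cxcl9 and at 430 and 148 for Cxcl10.

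In neutrophils of the treated tumours, Cxcl10 was found with almost no Cxcl9. Tumour 1, in which neutrophils made up 57.1% of CD45+ cells, held 287 Cxcl10 UMIs in 54 of 700 neutrophils, at 403 CPM (357 to 452). Tumour 2 held 40 UMIs in 15 of 215 neutrophils, at 232 (166 to 316). The untreated tumour held 7 UMIs, all in 1 of its 49 neutrophils, at 298 (120 to 615). That cell, of the N3 subset, also held all 7 Cxcl9 UMIs of untreated neutrophils. It had 503 UMIs in all, 35 of neutrophil markers and 0 of macrophage markers. The share of neutrophils with a Cxcl10 UMI was 2.04%, 7.71% and 6.98% in the untreated tumour, tumour 1 and tumour 2, where T cells had 2.67%, 0% and 2.96%. At full depth the untreated share, from 1 cell, thus lay below the T cell share, and both treated shares lay above it. Without cells with markers of a second type, untreated T cells stood at 0% in pool 1 and 1.45% in pool 2. Untreated neutrophils then stood at 0% and 4.35%, so the untreated order was not kept. The ratio to the untreated level was 1.35 in tumour 1 (counting interval 0.647 to 3.39) and 0.777 in tumour 2 (0.344 to 2.06), so neither interval left out 1. Cxcl9 in treated neutrophils was 3 UMIs in 1 cell of tumour 1 and 1 UMI in tumour 2, shares of 0.143% and 0.465% where T cells had 0% and 0.741%.

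In tumour 1, where neutrophils were the most frequent cells, most Cxcl10 lay outside myeloid cells. Neutrophils held 78.2% of the Cxcl10 UMIs of tumour 1, 11.3% of those of tumour 2 and 2.22% of those of the untreated tumour. Myeloid cells held 19.9%, 81.1% and 90.5%. Over all CD45+ cells together, the Cxcl10 level was 445 CPM in the untreated tumour (397 to 497), 264 in tumour 1 (238 to 292) and 190 in tumour 2 (171 to 211). The Cxcl9 level was 346 (304 to 392), 12.9 (7.67 to 20.5) and 161 (143 to 180). Tumour 1 therefore lay between the other tumours for Cxcl10 and lowest for Cxcl9.

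The Cxcl10 of neutrophils in tumour 1 was concentrated in the authors' N2 subset. The authors named the subsets from the same counts, which include Cxcl10, so differences between subsets are described and not tested. In that tumour, N2 cells were 28.0% of neutrophils and held 257 of the 287 Cxcl10 UMIs, or 89.5%. In tumour 2 they were 20.5% of neutrophils and held 19 of the 40, or 47.5%, but 11 of the 19 lay in 1 cell of 1 library. Without that library, left out after the data had been seen, they held 8 of 22, or 36.4%, and were 19.9% of neutrophils. The N2 level was 1220 CPM in tumour 1 (1075 to 1378; 38 of 196 cells) and 576 in tumour 2 (347 to 899; 6 of 44 cells). The other neutrophils stood at 59.8 and 150. Without the same library, N2 cells of tumour 2 stood at 335 (145 to 660; 5 of 33 cells) and its other neutrophils at 128. Leaving out each library of tumour 1 in turn gave N2 levels of 1082 to 1610 and N2 shares of 86.4% to 93.5% of the UMIs. Across the 4 libraries of a tumour, N2 levels ran from 409 to 1772 in tumour 1 and from 303 to 1208 in tumour 2. In the untreated tumour, 14 N2 cells with 7408 UMIs held 0 Cxcl10 UMIs. Against a floor of 3 UMIs over these cells, or 405 CPM, the level of tumour 1 was 3.01-fold higher, and 2.67-fold or more without any 1 of its libraries. These folds leave out counting error. The upper Poisson limit of the untreated level was 498 CPM, and the lower limit of tumour 1 was 1075. Both limits take UMIs as independent, although 10 cells held 68.9% of the N2 UMIs of tumour 1. They leave out the spread between cells, so they do not show that the tumours differed. For tumour 2 no such fold is given, since its level lay under that floor without the 1 library. With 0 of 14 cells a share of up to 21.4% is allowed, so a difference from the 19.4% of tumour 1 or the 13.6% of tumour 2 was not detectable in the share of cells.

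**Figure D4:**
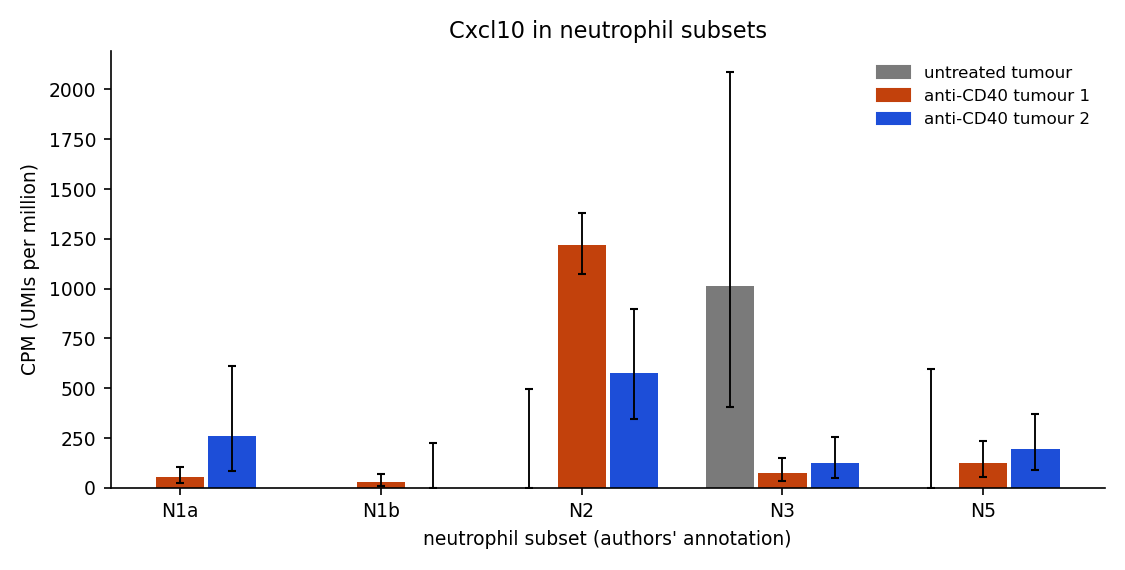
Cxcl10 in CPM by neutrophil subset, with a bar for each tumour that had at least 5000 UMIs in the subset and exact Poisson 95% intervals; an interval with no bar marks a level of 0. N2 stands at 1220 in tumour 1 and 576 in tumour 2, the latter at 335 without 1 library, and the untreated N3 bar rests on 1 cell.

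A few cells carried much of this signal. In tumour 1, the 10 neutrophils with the most Cxcl10 held 61.7% of the UMIs, and 3 N2 cells from different libraries held 28, 22 and 50 of them. These 3 cells had 31 to 295 UMIs of neutrophil markers and 0 of macrophage markers. Over all neutrophils, the 10 macrophage markers summed to 511 CPM in the untreated tumour, 201 in tumour 1 and 423 in tumour 2, with C1qc, Mrc1 and Trem2 at 0 in the untreated tumour and in tumour 1. Without the neutrophils that also carried 3 or more marker UMIs of another type, 8 in tumour 1 and 6 in tumour 2, the levels were 408 and 235. N2 cells of tumour 1 with Cxcl10 also held more of other inflammatory transcripts. Type I interferon induced genes summed to 42186 CPM in the 38 cells with Cxcl10 and to 23999 in the 158 without it. Ifit1, an antiviral effector, stood at 4171 against 1463, and Ccl4, an inflammatory chemokine, at 7190 against 2168. Median depth was 1345 and 1006.5 UMIs in these cells.

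No member passed the test in neutrophils. Cxcl10 had a log2 change of 0.66 ± 0.81 (SE, 1 untreated and 2 treated tumours; edgeR adjusted p = 0.784), in a fit where 12 of 2713 genes passed, or 0.442% (0.405% upwards and 0.0369% downwards), and the median gene stood at 0.29. Relative to that median it was 0.38, and with plain library sizes 0.39. Cxcl9 had too few UMIs for the filter. Without tumour 1 the log2 change of Cxcl10 was -0.16, and without pool 1 it was -0.51 (adjusted p = 0.862). The difference between the myeloid and the neutrophil change of Cxcl10 was -3.06 ± 0.90 (adjusted p = 0.374, unadjusted p = 0.00068), where the median over the 7700 genes tested was -1.83 and 6 genes passed, or 0.0779%. Relative to the median this difference was -1.23, and -1.02 with plain library sizes. Without pool 1 it was -1.19, or 1.26 relative to the median, so its direction against other genes turned. For Cxcl9 the difference was 1.91 ± 1.19 (adjusted p = 0.905). In both differences the untreated neutrophil level came from the 1 N3 cell.

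Cxcr3, the receptor, was measured thinly. T cells had a Cxcr3 UMI in 11 of 150 cells of the untreated tumour, 4 of 48 of tumour 1 and 14 of 135 of tumour 2. These shares were 7.33% (3.72 to 12.7), 8.33% (2.32 to 19.98) and 10.4% (5.79 to 16.8), and their intervals overlapped. After thinning to 300 UMIs they were 6.45%, 2.13% and 5.51%. The levels were 209 CPM (16 UMIs; 119 to 339), 92.4 (4 UMIs; 25.2 to 237) and 150 (16 UMIs; 85.5 to 243). The log2 change was -0.68 ± 0.57 (edgeR adjusted p = 0.717), in a fit where 39 of 1865 genes passed, or 2.09% (1.02% upwards and 1.07% downwards). Neutrophils, which should lack the receptor, had 0 Cxcr3 UMIs in 49, 700 and 215 cells, and myeloid cells had 4 UMIs in all. NK cells had 0 of 41, 0 of 28 and 5 of 128 cells with Cxcr3, the last a share of 3.91% (1.28 to 8.88). A count of 0 allows shares of up to 7.32% and 10.7% in the other NK groups, so no difference was detectable there. The difference between the T cell and NK cell changes gave an adjusted p of 0.987 (edgeR), with no fold because untreated NK cells were at 0; 0 of 1867 genes passed there, 67 had an unadjusted p under 0.05, and 2 passed with plain library sizes.

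Cxcr3 was seen in T cells with Foxp3, Cd4 or Cd8 transcripts, in small counts. Over the 3 tumours it had a UMI in 29 of 333 T cells, or 8.71% (5.91 to 12.3). Among cells with a UMI of Foxp3, the regulatory T cell factor, it was 8 of 70, or 11.4% (5.06 to 21.3). Among cells with Cd4 it was 8 of 77, or 10.4% (4.59 to 19.5). Among cells with Cd8a or Cd8b1 it was 2 of 27, or 7.41% (0.910 to 24.3). The untreated tumour gave 2 of 25 cells with Foxp3, 0 of 20 with Cd4 and 0 of 11 with Cd8a or Cd8b1, so for the last 2 kinds every cell with Cxcr3 came from a treated tumour. These intervals overlapped, so no T cell kind stood apart at this depth.

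**Figure D5:**
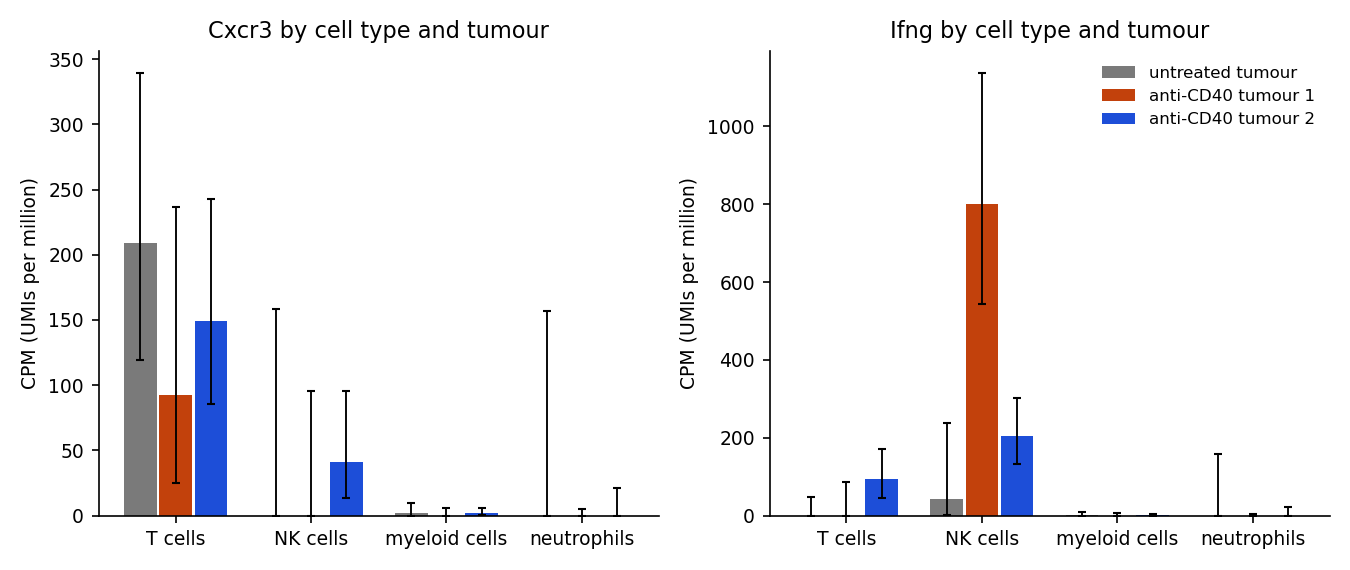
Cxcr3 (left) and Ifng (right) in CPM by cell type, with a bar for each tumour and exact Poisson 95% intervals; an interval with no bar marks a level of 0. Cxcr3 stands at 92.4 to 209 in T cells with overlapping intervals, and Ifng in NK cells stands at 42.9, 801 and 205 in the untreated tumour, tumour 1 and tumour 2.

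Ifng, the inducer of both ligands, was a transcript of NK cells and, in tumour 2, also of T cells. NK cells held 1 UMI in the untreated tumour, 31 in tumour 1 and 25 in tumour 2, in 1 of 41, 11 of 28 and 14 of 128 cells. The levels were 42.9 CPM (1.09 to 239), 801 (544 to 1137) and 205 (132 to 302). In tumour 1, 12 of the 31 UMIs lay in 1 cell. Without the NK cells that also carried 3 or more marker UMIs of another type, a choice made after the data had been seen, 13 UMIs were left in 22 cells of tumour 1, at 494 (263 to 845). The untreated tumour was then at 56.5 (1.43 to 315) and tumour 2 at 228 (144 to 342). The ratio to the untreated tumour was 18.7 (counting interval 3.11 to 761) in tumour 1 and 4.77 (0.781 to 196) in tumour 2. The test in NK cells gave a log2 change of 3.30 ± 1.04 (edgeR adjusted p = 0.0985), in a fit where 15 of 794 genes passed, or 1.89% (1.01% upwards and 0.882% downwards). T cells held 0, 0 and 10 Ifng UMIs. Tumour 1 thus had the highest Ifng level in NK cells. Without those with markers of another type, its interval overlapped the intervals of the other tumours. Over all CD45+ cells, Ifng was 2.83 CPM in the untreated tumour, 22.3 in tumour 1 and 19.3 in tumour 2. Without cells with markers of another type it was 2.95, 10.98 and 20.5, so tumour 1 then lay below tumour 2. Cxcl9 in myeloid cells was lowest in tumour 1, and its relation to Ifng was not tested. Il12b, the subunit that the reporter marks, had 2 UMIs in all cells, 1 in each treated tumour.

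Other genes of the pathway were read from lists chosen for this work. Of 29 interferon gamma induced genes tested in myeloid cells, 1 fell and 0 rose, where 0.239% of all genes tested fell and 0.169% rose. In both treated tumours 19 of the 29 had a lower level than untreated and 7 a higher one, where 37.1% of all genes tested were lower in both and 34.8% higher. Their median log2 change was -0.48, against 0.02 for all 7099 genes. The gene that fell was Ciita, the master regulator of MHC class II, at 202 CPM in the untreated tumour, 42.0 in tumour 1 and 33.0 in tumour 2 (log2 change -2.43 ± 0.38, edgeR adjusted p = 0.00708). Without pool 2 its adjusted p was 0.182, and with DESeq2 0.113. Of 34 type I interferon induced genes tested, 0 passed, with a median of -0.21. In both treated tumours 21 of the 34 had a lower level than untreated and 9 a higher one. The other named list genes reported here did not pass in myeloid cells. Irf1, an interferon-induced transcription factor, was at -0.94 ± 0.38, and Gbp2, an interferon-induced GTPase, at -0.88 ± 0.46. Isg15 was at -0.44 ± 0.39, Cd274, which encodes PD-L1, at 0.43 ± 0.42, and Spp1 at -0.58 ± 0.40.

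Of 6 other chemokine genes for T and NK cells tested in myeloid cells, 1 fell, where 0.239% of all genes tested did. Ccl17, a ligand of CCR4, had 61.4 CPM in the untreated tumour (35 UMIs), 6.71 in tumour 1 (4 UMIs) and 4.81 in tumour 2 (7 UMIs), with a log2 change of -3.41 ± 0.55 (edgeR adjusted p = 0.0087). Its adjusted p was 0.119 without pool 2, 0.145 without pool 4 and 0.311 in thinned cells. Cxcl16, the ligand of CXCR6, was at -0.70 ± 0.44 and Ccl5 at 0.62 ± 0.40, neither past the threshold. The modifiers of the CXCR3 axis gave no call: Dpp4, a protease that trims chemokines, had 10, 5 and 13 UMIs in myeloid cells, and Pf4 stood at 163, 116 and 263 CPM.

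In neutrophils, 1 of 31 type I interferon induced genes tested rose and 0 fell, where 0.405% of all genes tested rose and 0.0369% fell. The list had a median of 0.45, or 0.40 with genes at 0 set to their bound, against 0.29 for all genes. The gene that rose was Ifit2, an antiviral effector, which had 0 UMIs in untreated neutrophils and stood at 320 CPM in tumour 1 and 388 in tumour 2. Both were at least 2.61-fold above a floor of 3 UMIs over the untreated group (edgeR adjusted p = 0.0431). Because that group was at 0, the Ifit2 call was not followed over the other settings. Chil3, a chitinase-like lectin with close relatives in the genome that reads could be shared with, rose from 85.2 CPM (2 UMIs) to 875 and 829 (log2 change 3.89 ± 1.03, adjusted p = 0.0431). The ratios were 10.3 (counting interval 2.83 to 85.0) and 9.72 (2.64 to 81.1), and the adjusted p was 0.194 with plain library sizes, 0.227 without the filter, 0.462 without pool 1 and 0.110 without pool 3. Of 19 interferon gamma induced genes tested in neutrophils, 0 passed.

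In T cells, the chemokine receptor gene Cxcr4 rose, with 131, 439 and 692 CPM in the untreated tumour, tumour 1 and tumour 2 (log2 change 2.17 ± 0.47, edgeR adjusted p = 0.000375). It was the 1 gene that rose of 7 other lymphocyte chemokine receptor genes tested there, where 1.02% of all genes tested rose. Cxcr6, the receptor of Cxcl16, was at -0.84 ± 0.45 and did not pass. Ccl4 fell, with 692, 139 and 131 (-2.37 ± 0.41, adjusted p = 2.37e-06; 0.362 without pool 1). Arg1, an enzyme of myeloid cells, fell from 340 to 185 and 37.4 (-2.001 ± 0.56, adjusted p = 0.0213), and no setting that left out a pool kept it past the threshold. The 10 macrophage markers in T cells summed to 2730 CPM in the untreated tumour, with all 10 present, to 46.2 in tumour 1, with C1qa alone above 0, and to 150 in tumour 2, with C1qc, Ms4a7 and Adgre1 at 0; their part in these changes was not tested. Under DESeq2 the adjusted p of Cxcr4 and Ccl4 in T cells was 0.998, and in thinned cells that of Cxcr4 was 0.121. Cxcr4 also rose in NK cells, from 85.8 (2 UMIs) to 491 and 908 (3.06 ± 0.89, adjusted p = 0.0402), with ratios of 5.72 (counting interval 1.38 to 50.7) and 10.6 (2.86 to 88.5) and an adjusted p of 0.0578 with plain library sizes, 0.559 without the filter, 0.242 without pool 2 and 0.154 without pool 4.

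The genes most like each member were named by Pearson's r of log2(CPM + 10) over the 12 sums of 4 cell types in 3 tumours, among 6945 genes with at least 50 UMIs. Those nearest Cxcl9 were Fgd2 (r = 0.957), B3gnt7, Itga9, Gdpd3 and Slamf9 (0.917). Those nearest Cxcl10 were Sema4a (0.894), Tyrobp, Csnk1e, Fcer1g and Rnf19b (0.868). Those nearest Cxcr3 were Trac, a T cell receptor chain (0.967), Ikzf4, Cd3g, Ikzf2 and Cd3d (0.925). The sums share tumours and differ in depth, so these are descriptions of where transcripts lay. Cxcr3 itself had 45 UMIs, under the minimum set for the other genes.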

How the data were processed

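Per the labels' protocols, cells were sorted as CD45+ and sequenced by inDrops. The authors deposited whole-number UMI counts per cell and gene, not normalised, and a table with the pool, library, animal, cell type and neutrophil subset of each cell. The submitters' processing notes name bcl2fastq, STAR and GRCm38; nothing used here states versions, the counter, annotation, strand, cell filters or doublet removal. All deposited cells were kept and doublets were not called; leaving out cells with 3 or more marker UMIs of another type was an alternative.

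Counts were summed per animal and cell type, since pools and libraries are technical parts of an animal. The sums were tested with edgeR 4.0.16 in R 4.3.3 (TMM, filterByExpr, robust quasi-likelihood F test, Benjamini-Hochberg over all genes tested, threshold 0.05). With 1 residual degree of freedom, the fits assume that an untreated tumour varies as treated tumours do. Prior degrees of freedom were 15.9 in myeloid cells and infinite in the other 3 cell types, so p-values come mainly from the variance that genes share. Treatment effects of 2 cell types were compared by an interaction with the tumour as a block. Standard errors were obtained from the F statistic and the log2 change. DESeq2 1.42.0 was an alternative, with plain library sizes, no filter, thinning, and leaving out animals, pools or cells. The fit was tested on simulated data.

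Levels are UMIs per 1000000 (CPM) with exact Poisson 95% intervals, shares have Clopper-Pearson intervals, and ratios have conditional binomial intervals, which cover counting error alone. For a count of 0 the limit was 3 counts. Thinned cells were drawn to 300 UMIs. Myeloid cells were clustered without the 3 genes (scanpy 1.11.5, Leiden at resolution 1, 1500 variable genes, 20 components, 15 neighbours) and named only where at least 3 marker genes of a type were among the top 10 by fold.

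The members and all gene and marker lists were chosen with earlier results of these data known. Named were the 3 members, the list genes past the threshold (at most 10 a fit), a fixed set of 12 further genes of which 1 is not reported here, the 5 genes most like each member, and the leading 5 genes of clusters; Dpp4 and Pf4, and Ifit1 and Ccl4 in N2 cells, were named after their values were seen. Leaving out clusters 7, 8 and 11, each library for N2 cells, and NK cells with markers of another type for the Ifng level, was added after seeing the data. Levels of different genes were not compared.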

Additional observations from a re-analysis of the deposited data

Results flagged for a closer look

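The difference between myeloid cells and neutrophils in the change after anti-CD40 passed the threshold for 3 list genes, by the interaction in edgeR. In that fit 6 of 7700 genes passed, or 0.0779%. All 3 are antiviral effectors of the Ifit family induced by type I interferon. The calls of Ifit1 and Ifit3 depended on the setting. That of Ifit2 was not followed over the settings, because untreated neutrophils were at 0, so its stability is not known. Ifit1 stood at 128, 36.9 and 77.0 CPM in myeloid cells of the untreated tumour, tumour 1 and tumour 2, and at 426, 1061 and 921 in neutrophils. The difference of its log2 changes was -3.72 ± 0.87 (adjusted p = 0.0329), or -1.89 relative to the median of all genes tested. Ifit3 stood at 200.02, 80.6 and 113 in myeloid cells and at 213, 694 and 730 in neutrophils, a difference of -4.11 ± 0.93 (adjusted p = 0.0242), or -2.28 relative to the median. Ifit2 stood at 75.4, 25.2 and 44.7 in myeloid cells and at 0, 320 and 388 in neutrophils (adjusted p = 0.00508, with no fold because untreated neutrophils were at 0). Untreated neutrophils had 10, 0 and 5 UMIs of Ifit1, Ifit2 and Ifit3 in 49 cells. For Ifit1 and Ifit3 the adjusted p was above 0.05 with plain library sizes (0.419 and 0.295), without the filter (0.501 and 0.358), without cells with markers of a second type (0.0743 and 0.0602) and without pool 1 (0.174 and 0.205), pool 3 (0.779 for each) or pool 4 (1.00 for each). It was 0.0046 and 0.00161 without pool 2, and 0.078 and 0.0334 with no replicate block. The Ifit genes have close copies in the genome, and how shared reads were counted is not given in the sources used here.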

How the results depend on the processing

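The myeloid changes of Cxcl9 and Cxcl10 kept their direction under every alternative run. That of Cxcl9 was -1.67 with no filter (adjusted p = 0.00933), -1.49 in thinned cells (0.0339), -4.36 within pool 1 and -3.96 within pool 2; leaving out a treated animal or a pool gave -4.13 to -0.92. That of Cxcl10 was -1.63 with plain library sizes (0.0145), -1.54 with no filter (0.0269), -1.59 in thinned cells (0.0183), -1.51 without cluster 7 (0.00129) and -2.98 within pool 1, and -2.12 to -1.23 leaving out an animal or a pool. In neutrophils the Cxcl10 change ran from -0.51 to 0.88 over these omissions and was -0.48 within pool 2; the value within pool 1 and that without pool 2 were not given, because untreated neutrophils were then at 0. Cxcr3 in T cells ran from -1.18 to -0.49. The interaction of Cxcl9 ran from 1.40 to 5.05 without a pool and was 2.89 with no replicate block; that of Cxcl10 ran from -3.23 to -1.19 and was -3.06 with no replicate block, so the block changed no call of a member.

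Genes past the threshold in myeloid cells numbered 89 with plain library sizes, 14 with DESeq2, 141 with no filter, 52 without cells with markers of a second type, 56 in thinned cells, 8 after dropping the shallowest 10% of cells, 204 without cluster 7, 13 without cluster 8, and 1 to 27 without a pool. In neutrophils they numbered 7 with no filter, 7 in thinned cells and 3 to 25 without a pool; in T cells 3 with DESeq2, 18 without cells with markers of a second type, 18 in thinned cells and 19 to 32 without a pool; in NK cells 1 with DESeq2, 8 with no filter, 4 without cells with markers of a second type, 1 in thinned cells and 1 to 16 without a pool. For the interaction of myeloid cells and neutrophils the number was 1 with no filter and 0 to 28 without a pool. For that of T cells and NK cells it was 2 with plain library sizes, 1 with no filter, 2 without cells with markers of a second type, 3 with no replicate block and 0 to 4 without a pool. The causes were not tested.

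Changes of sign among genes that did not pass were seen in neutrophils for Cd274 (-0.18), Isg15 (-0.24) and Spp1 (-0.10) with plain library sizes and for Spp1 over -0.57 to 2.50 without an animal or a pool, in NK cells for Ccl5 over -1.52 to 0.90, and for the T cell minus NK cell difference of Cxcl10 without cells with markers of a second type (0.38). Replicates within the untreated condition were not measured: 1 animal stands for it, its cells were the shallowest, and its 49 neutrophils and 41 NK cells limit what either class can show.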

Other observations

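B cells, plasmacytoid dendritic cells and basophils entered no comparison. Untreated B cells held 10 Cxcl10 UMIs in 4 of 20 cells, at 735 CPM (352 to 1351), and 0 Cxcl9 UMIs. The 2 B cells of tumour 1 held neither ligand, and the 5 of tumour 2 held 1 Cxcl9 UMI and 2 Cxcl10 UMIs. Cxcl10 was also seen in NK cells, with 3, 7 and 18 UMIs in 2, 3 and 6 cells of the untreated tumour, tumour 1 and tumour 2, while their Cxcl9 count was 0 in all 3 tumours. After thinning, Cxcl10 was left in 0 of 35, 1 of 27 and 4 of 122 NK cells.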
